A study of Mus musculus with 24 samples.

Results

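H3K4me3, the trimethylation of lysine 4 on histone H3, is best known as the mark of gene starts, and the regions described here carry it elsewhere. They were taken from the H3K4me3 lists of 3 wild-type (WT) mouse fibroblast cultures by 2 criteria: a −log10 p over input of at least 10, and a distance of more than 1 kb between the region and every annotated transcription start site (TSS) of the mm9 genome, whatever the kind of gene. After merging overlapping regions of the 3 lists, 2033 such distal regions remained, out of 29957 merged H3K4me3 regions of any score and 13351 at the score minimum. The list of mouse embryonic fibroblasts (MEF) held 1165 distal regions before merging among 12086 at the minimum (9.64%), that of cancer-associated fibroblasts (MMTV-CAF) 1663 of 12253 (13.6%), and that of wound-healing fibroblasts (called wound cells below) 720 of 11204 (6.43%). The members were thus chosen by their own H3K4me3 scores and positions, and these values are given as a description only.

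MEF were C57BL/6 cells from embryos at day 10 to 13. MMTV-CAF were FVB/NJ cells from mammary tumours of MMTV-PyMT mice, and wound cells were C57BL/6 cells from dorsal skin wounds at day 10. All cells, WT and deleted alike, carried the HPV genes E6 and E7 for immortalisation. Besides WT there were cells in which Prrx1 had been deleted with a guide RNA and Cas9 (SG, in each of the 3 cell types) and MEF of mice carrying the Prrx1tm1Jfm/Mmmh allele (KI), read here from the study as a lacZ insertion into the Prrx1 homeodomain, although the strain label of these samples reads C57BL/6 like that of the other MEF. The SgNS guide served as the WT control for SG, and the labels do not say whether the only MEF WT list is that of an SgNS line. The 17 peak lists analysed comprised 7 of H3K4me3, 7 of H3K27ac and 3 of Prrx1 (WT only), with 1 list per group and mark and no values of single replicates. No p-value is therefore given, and the intervals printed are 95% intervals (Wilson for a share, Newcombe for a difference) that cover counting error over regions and not variation between cultures. The lists hold no read counts, so the depth behind them is unknown. The MMTV-CAF cells differ from the others in strain as well as in origin, and the effects of these cannot be told apart.

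A gene start bearing H3K4me3 is usually free of DNA methylation, and most lie in CpG islands, stretches rich in the dinucleotide CG that the methyltransferase complexes recognise. H3K4me3 away from known starts is seen at CpG islands without an annotated gene, at genes transcribed by RNA polymerase III such as those of transfer RNA (tRNA), at starts missing from the annotation, and more weakly at strong enhancers, where H3K4me1 usually prevails. H3K27ac, the acetylation of lysine 27, marks active enhancers and active starts alike. Prrx1 is a homeodomain transcription factor of the limb and craniofacial mesenchyme and of activated fibroblasts, and homeodomains of its class bind sites with the letters TAATTA.

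The libraries carried the H3K4me3 pattern of fibroblasts over annotated starts. Of 11 fibroblast marker genes, 7 to 10 were marked in each list, with Lum unmarked in all 7 lists. Of 11 epithelial markers 0 to 2 were marked (Cdh1 or Krt19), of 10 endothelial markers 1 or 2 (Kdr, Vwf or Sox18), and of 8 leukocyte markers only Cd14, while Epcam, Pecam1 and Ptprc were unmarked in every list. The MEF KI list had the fewest regions at the minimum, 6483 against 12086 in MEF WT.

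Windows of 160 bases, chosen for 4 kinds of sequence, show examples as they stand in mm9, on the plus strand, 5′ to 3′. None overlaps an annotated exon. The first pair shows strong CpG-rich regions found in all 3 cell types, with no placed RefSeq promoter within 1 kb. Every CG is in capitals (20 and 12 of them). The first lies 38617 bp from the closest protein-coding start, that of Tacc1, a centrosomal coiled-coil gene, and the second 5562 bp from that of the gene model Gm5146.
Near Tacc1, chr8:26351158-26351317: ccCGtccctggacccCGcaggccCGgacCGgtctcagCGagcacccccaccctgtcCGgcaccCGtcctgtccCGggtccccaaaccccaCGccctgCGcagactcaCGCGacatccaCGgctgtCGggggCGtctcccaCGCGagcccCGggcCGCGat
Near Gm5146, chr17:23683362-23683521: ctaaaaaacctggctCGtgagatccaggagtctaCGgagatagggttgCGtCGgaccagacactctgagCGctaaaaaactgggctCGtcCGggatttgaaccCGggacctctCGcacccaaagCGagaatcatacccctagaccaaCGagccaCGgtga

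The next 3 windows were chosen for TGANTCA, the letters bound by AP-1 dimers of Fos and Jun proteins, which their capitals mark. They come from the strongest regions with these letters in the central 500 bp among those present in MMTV-CAF with no overlapping region in the other 2 WT lists, and the strongest such regions whatever their sequence are described further on. They have no placed RefSeq promoter within 1 kb either.
Near C530008M17Rik, chr5:77265683-77265842: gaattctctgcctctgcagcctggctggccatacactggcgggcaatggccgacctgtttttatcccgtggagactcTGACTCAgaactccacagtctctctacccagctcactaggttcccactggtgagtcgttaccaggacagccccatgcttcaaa
Near Tmem194, chr10:127112277-127112436: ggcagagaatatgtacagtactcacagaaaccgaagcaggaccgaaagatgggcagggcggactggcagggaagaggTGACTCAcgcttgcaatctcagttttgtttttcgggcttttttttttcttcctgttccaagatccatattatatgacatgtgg
Near Gm9920, chr15:54952696-54952855: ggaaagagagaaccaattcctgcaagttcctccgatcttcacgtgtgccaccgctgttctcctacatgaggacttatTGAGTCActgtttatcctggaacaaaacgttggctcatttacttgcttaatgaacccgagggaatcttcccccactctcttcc

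Another 3 windows come from an interval of chromosome 13 that is dense in tRNA genes and histone genes. Their capitals mark a strict form of the B box, the internal promoter element of tRNA genes, and in the third window the capitals are its reverse complement because the box lies on the minus strand.
Near Hist1h2bl, chr13:21802423-21802582: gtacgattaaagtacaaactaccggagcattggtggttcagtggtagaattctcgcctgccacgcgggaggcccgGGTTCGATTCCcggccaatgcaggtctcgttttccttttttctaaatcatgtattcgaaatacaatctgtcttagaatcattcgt
Near Trim27, chr13:21292081-21292240: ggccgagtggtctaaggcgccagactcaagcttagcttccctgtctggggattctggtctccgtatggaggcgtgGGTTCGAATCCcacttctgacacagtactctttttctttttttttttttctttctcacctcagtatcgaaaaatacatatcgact
Near Btn1a1, chr13:23537947-23538106: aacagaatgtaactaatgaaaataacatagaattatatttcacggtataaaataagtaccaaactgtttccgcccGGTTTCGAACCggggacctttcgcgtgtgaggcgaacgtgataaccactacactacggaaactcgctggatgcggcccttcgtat

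The last window is centred on the strongest Prrx1 summit of a region that held a Prrx1 summit in all 3 cell types. It was chosen for having TAATTA close to the summit (in capitals, 2 overlapping matches), which most Prrx1 summits in distal regions lacked. It lies 83746 bp from the start of Commd3.
Near Commd3, chr2:18508996-18509155: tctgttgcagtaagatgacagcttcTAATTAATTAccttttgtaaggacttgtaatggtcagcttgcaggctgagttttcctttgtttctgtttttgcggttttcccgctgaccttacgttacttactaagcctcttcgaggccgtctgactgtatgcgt

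Scores of single regions are −log10 p values of H3K4me3, given throughout in the order WT, KI, SG for MEF and WT, SG for the other cells. The region of the Tacc1 window had 32.9, 6.97 and 26.7 in MEF. It had 33.2 and 60.2 in MMTV-CAF, then 35.2 and 24.5 in wound cells. It was thus present in all 7 lists, lowest in MEF KI. The Gm5146 region was among the strongest distal regions of all, with 61.0, 15.3 and 39.1 in MEF, 67.5 and 64.9 in MMTV-CAF, then 32.4 and 31.2 in wound cells. The minus strand of its window also holds 1 match to a wider form of the B box, in which 1 base of the strict form is free. Whether a tRNA gene lies in this window was not tested, so it may not stand for CpG-rich regions without a gene. The AP-1 windows had scores of 19.6 and 17.7 (C530008M17Rik), 19.4 and 27.1 (Tmem194) and 17.3 and 21.4 (Gm9920) in MMTV-CAF WT and SG. Of the 5 other lists, only MEF SG covered any of these 3 regions, at a score of 5.37 near Tmem194.

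The distal regions lay at all distances from genes. The median distance to the nearest annotated start was 10997 bp, with 557 members (27.4%) at 1 to 5 kb, 800 (39.4%) at 5 to 20 kb, 611 (30.1%) at 20 to 100 kb and 65 (3.20%) beyond 100 kb. By their centres, 1290 (63.5%) were intergenic, 630 (31.0%) lay in introns and 113 (5.56%) in exons. The nearest start was that of a protein-coding gene for 1455 members (71.6%), of a pseudogene for 126, of a lincRNA for 120 and of a miRNA for 88 (4.33%). Of those in each list, 14.03% to 14.9% lay within 5 kb of an H3K4me3 region over a start in the same list. By chromosome, distal regions made up 11.4% of all those at the score minimum on X, the lowest share apart from Y, which had 0, and 21.98% on chromosome 15, the highest.

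A second annotation placed starts at some of these regions. RefSeq holds starts that the mm9 annotation used here (GENCODE vM1) lacks, and such a start lay within 1 kb of 307 of the 1955 members on chromosomes that could be compared (15.7%, interval 14.2 to 17.4). This was 8.97% of the members found in 1 cell type, 11.8% of those in 2 and 32.8% of those in 3. Among H3K4me3 regions near an annotated start it was 80.9%, and 71.6% over all regions at the minimum. The remaining 1648 compared members had no start of the first annotation and no placed RefSeq promoter within 1 kb. Promoters that could not be placed were left out, and whether tRNA genes were among the placed ones was not checked.

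At the score minimum, distal regions were found in all 3 cell types less often than promoter regions, which have higher scores. A region of all 3 WT lists that itself passed the rule was present in 515 of 2033 members (25.3%, interval 23.5 to 27.3), against 9709 of 11414 merged regions near a start (85.1%) and 76.7% of all regions at the minimum, a difference of −59.7 points (−61.7 to −57.7). A further 459 members (22.6%) were found in 2 cell types and 1059 (52.1%) in 1. The share in all 3 was 16.2% at a score minimum of 5 and 39.4% with the 720 strongest distal regions of each list. MMTV-CAF alone accounted for 780 (38.4%), MEF alone for 214 (10.5%) and wound cells alone for 65 (3.20%). Among pairs, MEF with MMTV-CAF had 329 members (16.2%), MEF with wound cells 94, and MMTV-CAF with wound cells 36.

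Many members counted in 1 or 2 cell types had a region below the score minimum in the others. When any overlapping region counted, whatever its score or distance to a start, 1417 members (69.7%) were found in all 3 cell types and 248 in 1, while the share for regions near a start was 94.5%. List by list, with regions near a start weighted to the distal scores, MEF distal regions were covered in MMTV-CAF WT in 92.0% of cases against 90.65% near a start, and in wound WT in 94.5% against 98.0%. For MMTV-CAF regions the shares were 80.1% against 92.65% in MEF WT and 78.6% against 94.4% in wound WT, and for wound regions 96.5% against 98.9% in MEF WT and 92.5% against 95.2% in MMTV-CAF WT. Of the 816 MMTV-CAF members not counted in MEF, 468 (57.4%) had a MEF region below the minimum, 331 (40.6%) had none and 17 had one that reached a start. Of the 1109 not counted in wound cells, 741 (66.8%) had a weaker region and 355 (32.0%) none. The 543 MEF members not counted in wound cells had a weaker region in 473 cases (87.1%). A region at the minimum that reached within 1 kb of a start stood instead at 58 of the 308 MEF members not counted in MMTV-CAF (18.8%), 34 of 159 wound members not counted there (21.4%) and 16 of those not counted in MEF (15.8%). In all, 96 members (4.72%) were overlapped by such a region of another WT list. Members just inside the minimum had −log10 p values of 10.003, 10.003 and 10.023 in MEF, MMTV-CAF and wound cells, and the closest distal regions just outside had 9.992, 9.997 and 9.997. Between 5 and 10 the 3 lists held a further 1393, 4643 and 1290 distal regions.

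**Figure D1:**
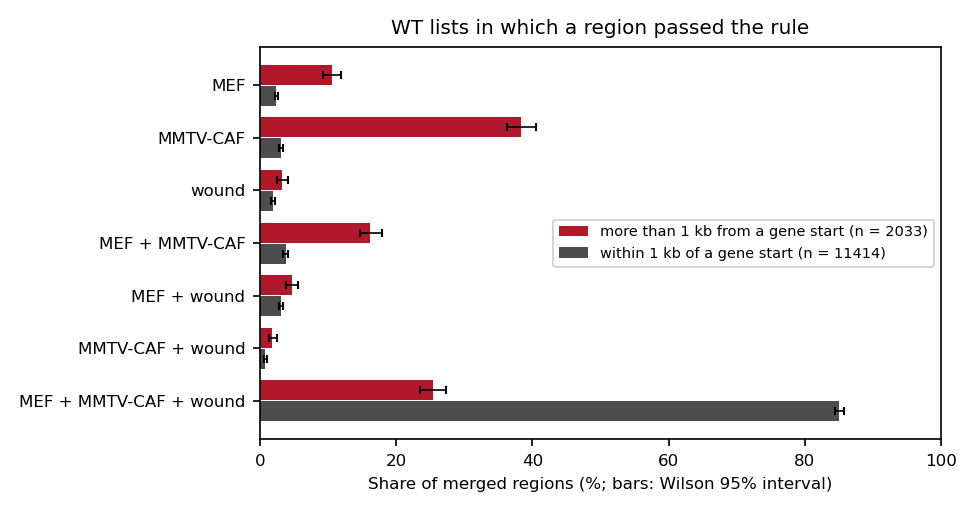
Horizontal bars give the share (%) of merged H3K4me3 regions by the combination of WT lists in which they were found, for distal regions (n = 2033) and regions near a start (n = 11414), with Wilson 95% intervals. Among distal regions MMTV-CAF alone is the most frequent (38.4%), and 25.3% of distal regions against 85.1% of regions near a start are found in all 3.

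The members found in more cell types were wider, higher in score and closer in base composition to promoters. Median width rose from 1095 bp in 1 cell type to 1390 bp in 2 and 1976 bp in 3, and the median top −log10 p from 12.3 to 18.8 and 33.5. Widths of merged members also grow with the number of lists merged, and the top score is taken over more lists and draws on the values the rule used. CpG-rich centres, with at least 50% GC and an observed-to-expected CG ratio of at least 0.6 over 500 bp, were found in 14.1%, 32.7% and 44.3% of members in 1, 2 and 3 cell types. Over all members the share was 25.9% (527 of 2033, interval 24.1 to 27.9), against 43.6% near a start and 2.27% in windows 10 kb to either side. It was 40.4% of the 1265 members left without the MMTV-CAF list, and 10.9% at a score minimum of 5. The intergenic share rose likewise, from 55.8% in 1 cell type to 75.9% in 3.

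The members that met the rule in a single cell type did not look alike in sequence. Most of them had a region in another WT list that did not meet the rule. Only 213 in MMTV-CAF, 24 in MEF and 11 in wound cells had none, and the shares were not computed for these apart. CpG-rich centres were found in 7.82% (interval 6.14 to 9.92) of the 780 members of MMTV-CAF alone, 23.4% (18.2 to 29.5) of the 214 of MEF alone and 58.5% (46.3 to 69.6) of the 65 of wound cells alone. The AP-1 letters TGANTCA showed the opposite order, with 23.6% (20.7 to 26.7) in MMTV-CAF alone, 14.5% (10.4 to 19.8) in MEF alone and 9.23% (4.30 to 18.7) in wound cells alone, where the intervals of the last 2 overlap. By sharing, the AP-1 share fell from 20.9% in 1 cell type to 13.3% in 2 and 7.77% in 3. It was 15.8% over all members, 9.03% near a start and 13.7% in the flanking windows, so that members of all 3 cell types stood below the flanks. GGAATG, the letters bound by TEAD factors of the Hippo pathway, was present in 32.7% (29.5 to 36.1) of members of MMTV-CAF alone, 29.4% (23.7 to 35.9) of MEF alone and 18.5% (10.9 to 29.55) of wound cells alone, intervals that overlap between neighbours in this order. It was present in 26.8% of all members, 20.7% of regions near a start and 23.9% of flanks.

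Other motifs divided the distal regions differently. A core of the site of the insulator protein CTCF was found in the central 500 bp of 7.53% of members (6.46 to 8.75), against 3.10% near a start and 5.05% of flanks. It reached 15.4% (10.2 to 22.6) of the 130 members without an H3K27ac summit in any of the 7 lists, and 6.11% (5.01 to 7.43) where H3K27ac was inside in every cell type of the member. CCGGAAGT, the promoter site of ETS factors such as Gabpa, stood at 2.26% in members, 3.08% near a start and 0.542% in flanks. TAATTA was found in 7.87% of members, 6.65% of regions near a start and 12.3% of flanks, which are poorer in GC. Every motif was sought on both strands in windows of the same length, and a match is only a run of letters.

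The 5 members with the highest lowest score over the 3 WT lists illustrate the shared kind. The first, chr5:33014762-33016367 (1606 bp), lies 50633 bp from the nearest start, that of the pseudogene Gm2420, and had 38.7, 10.3 and 38.9 in MEF, 41.6 and 33.9 in MMTV-CAF, then 42.2 and 16.3 in wound cells. Its centre was not CpG-rich, with an observed-to-expected CG ratio of 0.0413. The second lies in an intron of Baz2a, a subunit of the complex that silences ribosomal RNA genes, at chr10:127533446-127536100 and 4755 bp from the start, with 56.5, 14.95 and 46.3 in MEF, 56.4 and 46.3 in MMTV-CAF, then 37.8 and 30.5 in wound cells.

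The third, chr8:113579714-113583357, has its centre in an exon of Aars, which encodes alanyl-tRNA synthetase, and RefSeq places the start of Exosc6, a subunit of the RNA exosome, inside it. It had 45.8, 11.7 and 41.0 in MEF, 56.6 and 93.3 in MMTV-CAF, then 37.2 and 34.9 in wound cells. This member is therefore distal only in the annotation used. The fourth, chr19:61275090-61276500, lies 15297 bp from the gene model Gm6020, with 42.7, 14.5 and 26.2 in MEF, 44.1 and 40.7 in MMTV-CAF, then 36.0 and 18.6 in wound cells. The fifth, chr8:86723854-86729197 (5344 bp), lies 3220 bp from Mir23a, a miRNA gene transcribed together with neighbouring miRNAs, and 23403 bp from Nanos3, the closest coding gene. It had 45.1, 11.0 and 37.4 in MEF, 71.8 and 80.5 in MMTV-CAF, then 35.4 and 23.0 in wound cells. All 5 were present in all 7 lists, and in each of them the lowest of the 7 values was that of MEF KI. Over all regions of the list, the median score was 9.935 in MEF KI, against 28.6 in MEF WT and 23.3 in MEF SG.

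The 3 widest distal regions are described next. A stretch of 24082 bp at chr15:85494218-85518299 lies 18734 bp from Mirlet7c-2, a gene of the let-7 family. The widest region of each list there spanned 8846, 4948 and 8246 bp in MEF, 24082 and 23918 bp in MMTV-CAF, and 17661 and 20443 bp in wound cells. It held 13, 10 and 12 H3K27ac summits in the MEF lists, 9 and 13 in MMTV-CAF, then 13 and 4 in wound cells, together with 4 Prrx1 summits in MMTV-CAF, 1 in wound cells and 0 in MEF. It was widest in MMTV-CAF whether or not Prrx1 had been deleted. The second, of 11675 bp, lies at chr4:88573277-88584951, 16711 bp from Mir31, with 3 Prrx1 summits in wound cells and 1 in each of the other cell types. The third, of 9985 bp, lies at chr19:47385346-47395330 in an intron of Sh3pxd2a, the scaffold protein of invadopodia, with 37.6, 8.05 and 28.3 in MEF, 36.2 and 29.0 in MMTV-CAF, then 18.1 and 12.4 in wound cells.

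**Figure D2:**
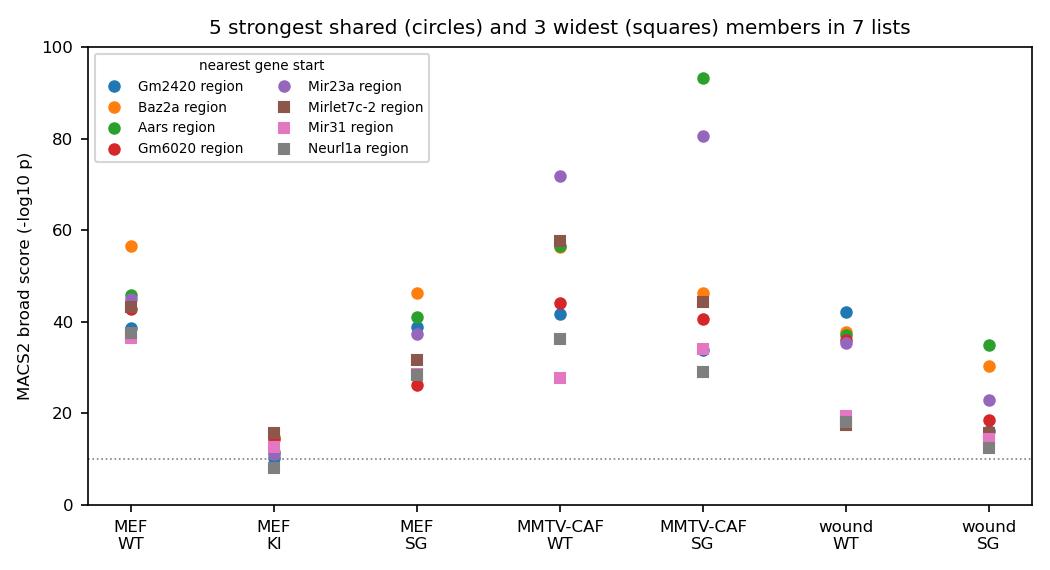
H3K4me3 −log10 p in each of the 7 lists for the 5 strongest shared members (circles) and the 3 widest (squares), named by the nearest start, where Neurl1a stands for the region in the Sh3pxd2a intron, with a dotted line at the minimum of 10. All 8 have a value in every list, and those of MEF KI, from 8.05 to 15.7, are the lowest of the 7 except near Mirlet7c-2, where wound SG has 15.6.

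Scores differed between the lists, with a median near a start of 42.9 in MMTV-CAF, 34.5 in MEF and 21.9 in wound cells. Of the members present in 1 WT list with no overlapping region in the others, MMTV-CAF had the strongest. They were chrX:47903035-47903865 with 39.3 in WT and 39.3 in SG, chr4:78159279-78159661 with 37.9 and 27.5, 301414 bp from Ptprd, a receptor tyrosine phosphatase gene, and chr4:48692890-48697424 with 36.3 and 39.7, 16504 bp from Murc, a caveolar gene of muscle. None of the 3 had a region in the MEF or wound lists, deleted lists included. In MEF alone the strongest lay 4283 bp from Suox, the sulfite oxidase gene (26.9, 6.79 and 17.0 in WT, KI and SG), at chr11:88756571-88757752, 30671 bp from Akap1 (21.4, 4.70 and 20.02), and in an exon of the protocadherin gene Pcdhgc5 (21.1 in WT, 19.3 in SG and no region in KI). The Suox region also had a value of 5.38 in wound SG. In wound cells alone the strongest were weaker, with 16.6 and 8.80 in WT and SG near Rab6b, a Golgi GTPase gene, 16.6 and 11.7 in an exon of Vgll2, a TEAD cofactor, and 14.1 and 4.72 at 16423 bp from Klf4, a zinc-finger factor of skin and stem cells.

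Some distal regions came in dense groups. When members within 50 kb of each other were linked, 1381 stood alone and 250 groups held 2 or more, of which 12 held 5 or more (85 members). The largest group, of 13 members at chr13:21250195-21419782 beside Trim27, Gpx5 and Gpx6, had 7 members found in all 3 cell types and 4 with H3K27ac, and 12, 12, 13 and 13 of the 13 were present in KI and in the SG lists of MEF, MMTV-CAF and wound cells. The second, of 12 members at chr13:21905809-22144046, lies among genes of the histone cluster with Zfp184 and Prss16, with H3K27ac in 7 members, and 10, 9, 11 and 10 of its members were present in those 4 lists. A smaller group of 7 at chr13:23487182-23546275 beside Abt1 had H3K27ac in 5 and all 7 in each of the 4 deleted lists. RefSeq lists 13 tRNA genes between Trim27 and Gpx5, 4 between Zfp184 and Prss16 and 6 between Abt1 and Zfp322a, of 430 in all.

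The B box was sought over whole regions after these groups had been seen, so its counts are a description. Its strict form, marked in the windows above, was present in 19 of the 32 members of the 3 groups (59.4%, interval 42.3 to 74.5) and in 49 of the other 2001 (2.45%). Over all members it was 68 (3.35%, 2.65 to 4.22), against 2.42% near a start and 1.30% of flanks of the same width. The share was 1.13% for members of 1 cell type, 3.92% for 2 and 7.38% for 3. The wider form, with 1 base free, was found in 25 of the 32 but in 10.1% of all members, with 13.7% near a start and 8.85% of flanks, so the members stood further from flanks in the strict form than in the wider. Members with the strict form were wider (median 2191.5 against 1336 bp), and wider regions hold more letters. Of these 68, 38 were found in all 3 cell types (55.9% against 24.3% of the others), 20 held a Prrx1 summit (29.4% against 17.3%), and 63 were present in every deleted list of their cell types (92.6% against 81.9%). The share without an H3K27ac summit of the same cell type was 17.6% against 18.1%, and that with a RefSeq start within 1 kb 17.6% against 15.01%.

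The box member near Hist1h2bl had 27.4, 18.6 and 21.0 in MEF, 29.9 and 32.9 in MMTV-CAF, then 20.7 and 15.9 in wound cells. That near Trim27 had 24.99, 11.4 and 16.8, then 23.7 and 24.5, then 13.8 and 7.27. That near Btn1a1 had 29.5, 13.2 and 20.5, then 32.2 and 39.3, then 13.6 and 8.51. All 3 were thus covered in every list, KI included.

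**Figure D3:**
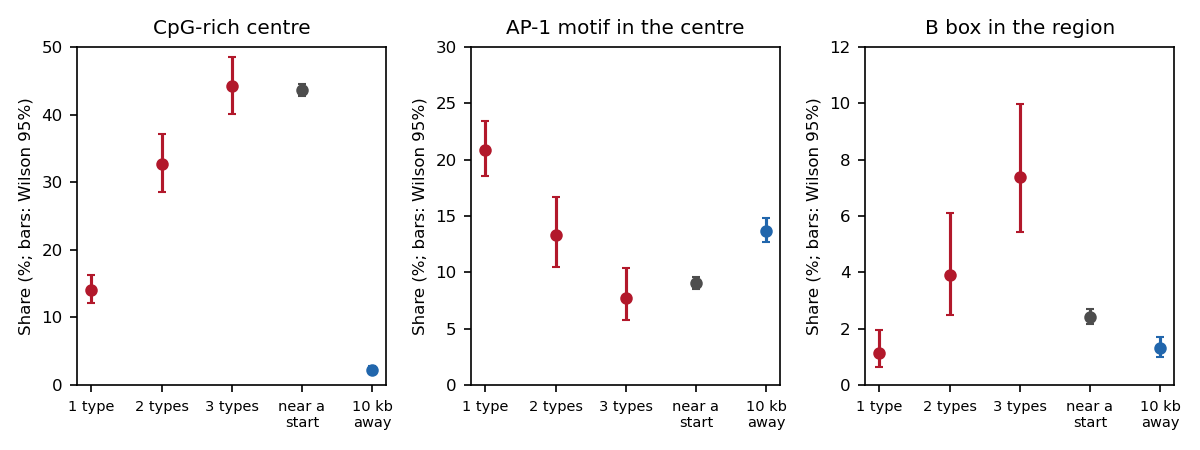
Share (%) of distal regions with a CpG-rich centre, with TGANTCA in the central 500 bp and with the strict B box in the region, for members of 1, 2 and 3 cell types, beside regions near a start and windows 10 kb away, with Wilson 95% intervals. From members of 1 to members of 3 cell types CpG-rich centres rise from 14.1% to 44.3% and the B box from 1.13% to 7.38%, while TGANTCA falls from 20.9% to 7.77%.

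A group of 10 members on the X chromosome, chrX:47890036-47976525, behaved otherwise. The first member was found in MEF WT (21.4) with weaker values in KI (5.23), SG (11.8) and the wound lists (9.12 and 9.73), and had no region in either MMTV-CAF list. The other 9 had −log10 p values of 10.4 to 39.3 in MMTV-CAF WT and no region in any of the 5 MEF and wound lists, and 7 of them were covered in MMTV-CAF SG. Of these 7, the one at chrX:47903035-47903865 had 39.3 in both MMTV-CAF lists, and the others had 3.11 to 7.32 in SG, below the minimum. The group lies downstream of the start of Firre, a long noncoding RNA of the X chromosome, which the annotation used lists as the lincRNA 6720401G13Rik at chrX:47908921-47988498 on the minus strand. The last member ends 11973 bp before that start, and 8 of the 10 members lie inside the gene. The Firre start itself was covered in all 7 lists (31.3, 12.1 and 25.98 in MEF, 19.3 and 25.8 in MMTV-CAF, 14 and 10.7 in wound cells), unlike the members inside the gene. Firre and Xist, the RNA that coats the inactive X, were looked up after these values had been seen. An annotated Xist start was covered in both MMTV-CAF lists (27.2 and 17.1), while the other 5 lists had no region there. The labels do not give the sex of the cells, and the part of sex, of strain and of X inactivation in this group was not tested.

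Distal regions were narrower than promoter regions in each of the 3 WT lists. Median widths were 1181 bp in MEF, 1432 bp in MMTV-CAF and 1255.5 bp in wound cells, against 2180, 2963 and 2076 bp near a start. Merged members had a median of 1365 bp, with a middle range from 863 to 2088 bp and extremes of 243 and 24082 bp. Regions over 4 kb numbered 22, 99 and 19 in the 3 lists (1.89%, 5.95% and 2.64%), against 8.81%, 26.95% and 8.70% near a start. The median −log10 p was 18.5, 15.9 and 14.4 in the distal regions of the 3 lists and 34.5, 42.9 and 21.9 near a start, and the median fold enrichment over input was 4.32, 5.36 and 6.11 against 5.59, 9.76 and 7.81.

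Most distal regions carried H3K27ac. A summit of the same cell type lay inside 902 of 1165 regions in MEF (77.4%, interval 74.9 to 79.7), 1398 of 1663 in MMTV-CAF (84.1%, 82.2 to 85.8) and 533 of 720 in wound cells (74.0%, 70.7 to 77.1), where all regions at the minimum had 91.1%, 94.0% and 90.2%. Near a start the shares were 92.6%, 95.6% and 91.3%, and distal minus near a start gave −15.1 points (−17.7 to −12.8), −11.5 points (−13.4 to −9.80) and −17.3 points (−20.7 to −14.2). The order turned in 2 of the 3 cell types when widths were made alike. Weighting the regions near a start to the width classes of the distal ones gave 74.0%, 78.3% and 76.8%, and the differences became 3.38 and 5.72 points in MEF and MMTV-CAF and −2.74 in wound cells. The order depended on the width class. Under 500 bp, H3K27ac was inside 50% of distal regions and 31.5% of those near a start in MEF, with 46.3% and 30.6% for MMTV-CAF, 45.8% and 28.2% for wound cells. Between 500 bp and 1 kb, H3K27ac was inside 63.8% of distal regions and 50.7% of regions near a start in MEF, while MMTV-CAF had 66.0% and 48.3%, wound cells 55.0% and 56.6%. From 1 to 2 kb the shares were 86.2% and 89.6% in MEF, 91.0% and 87.1% in MMTV-CAF, then 80.7% and 87.6% in wound cells. At 2 kb and more distal regions had the lower share in each, with 94.1% against 98.8%, 96.7% against 99.4% and 96.5% against 98.4%. Per kb, distal regions held 0.720, 0.634 and 0.674 summits against 0.6, 0.494 and 0.624 near a start.

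Over merged members, 1666 (82.0%) had H3K27ac in at least 1 of the cell types where they were found and 1506 (74.1%) in every one. The share with any was 76.0%, 82.8% and 93.4% for members of 1, 2 and 3 cell types, which also have 1, 2 and 3 chances to hold a summit. In 130 members (6.39%) no H3K27ac summit lay inside in any of the 7 lists, against 304 regions near a start (2.66%). Of these 130, 48 (36.9%, interval 29.1 to 45.5) had a CpG-rich centre, compared with 22.3% of members with H3K27ac in every cell type. Of all H3K27ac summits, 2.56%, 3.497% and 2.13% in the 3 cell types lay inside distal H3K4me3 regions.

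Prrx1 summits lay in few distal regions of MEF and in more of the other cell types. They were inside 15 of 1165 (1.29%, 0.782 to 2.11) in MEF, 310 of 1663 (18.6%, 16.8 to 20.6) in MMTV-CAF and 73 of 720 (10.1%, 8.14 to 12.6) in wound cells, beside 1.07%, 17.1% and 11.5% of all regions at the minimum. The Prrx1 lists held 3048, 8000 and 5698 summits, and these sizes move in the same order as the shares. Near a start the shares were 1.04%, 16.8% and 11.6%. The differences of 0.24 points (−0.30 to 1.09), 1.82 points (−0.12 to 3.89) and −1.48 points (−3.57 to 1.02) include 0 in each cell type. With widths made alike, regions near a start had 0.548%, 10.9% and 7.45%, and the distal shares were higher by 0.74, 7.76 and 2.69 points. Distal regions of MMTV-CAF under 500 bp, at 500 bp to 1 kb, at 1 to 2 kb and of 2 kb or more held Prrx1 in 6.61%, 9.39%, 16.2% and 31.1% of cases, and those near a start in 19.4% (7 of 36), 3.04%, 6.84% and 19.6%. Per kb, distal regions held 0.0094, 0.122 and 0.0718 Prrx1 summits against 0.0046, 0.0569 and 0.0549.

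Most members with Prrx1 also held H3K27ac, as most members did. Of the 359 members with a Prrx1 summit of the same cell type (17.7%), 335 held H3K27ac of that cell type, while 1666 of all 2033 members did (82.0%). Without the MMTV-CAF list, Prrx1 was in 6.56% of members. In MMTV-CAF 294 of the 310 distal regions with Prrx1 had H3K27ac, beside 84.1% of all distal regions there, and those with Prrx1 were wider (median 2022 against 1332 bp). Among members of all 3 cell types 119 (23.1%) held Prrx1 in at least 1, 22 of the 515 in exactly 2, and 4 in all 3, of which 2 held H3K27ac in all 3. As a share of its own list, Prrx1 was inside distal H3K4me3 regions for 0.492%, 4.51% and 1.33% of summits in the 3 cell types. TAATTA lay within 100 bp of 5 of the 15 summits in distal regions of MEF (33.3%), 83 of 361 in MMTV-CAF (23.0%) and 18 of 76 in wound cells (23.7%). For summits outside every H3K4me3 region the shares were 71.1%, 44.2% and 50.8%, and inside regions near a start 58.3%, 24.6% and 18.8%. Prrx1 summits in distal H3K4me3 regions thus had the letters less often than those away from H3K4me3. Distal intervals were 15.2 to 58.3, 19.0 to 27.6 and 15.5 to 34.4 in MEF, MMTV-CAF and wound cells. Away from H3K4me3 they were 69.4 to 72.7, 42.7 to 45.6 and 49.2 to 52.3. TAATTA holds no G or C, while the median GC was 52.4% at the centres of members and 45.6% in flanks. This difference in GC was not allowed for.

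**Figure D4:**
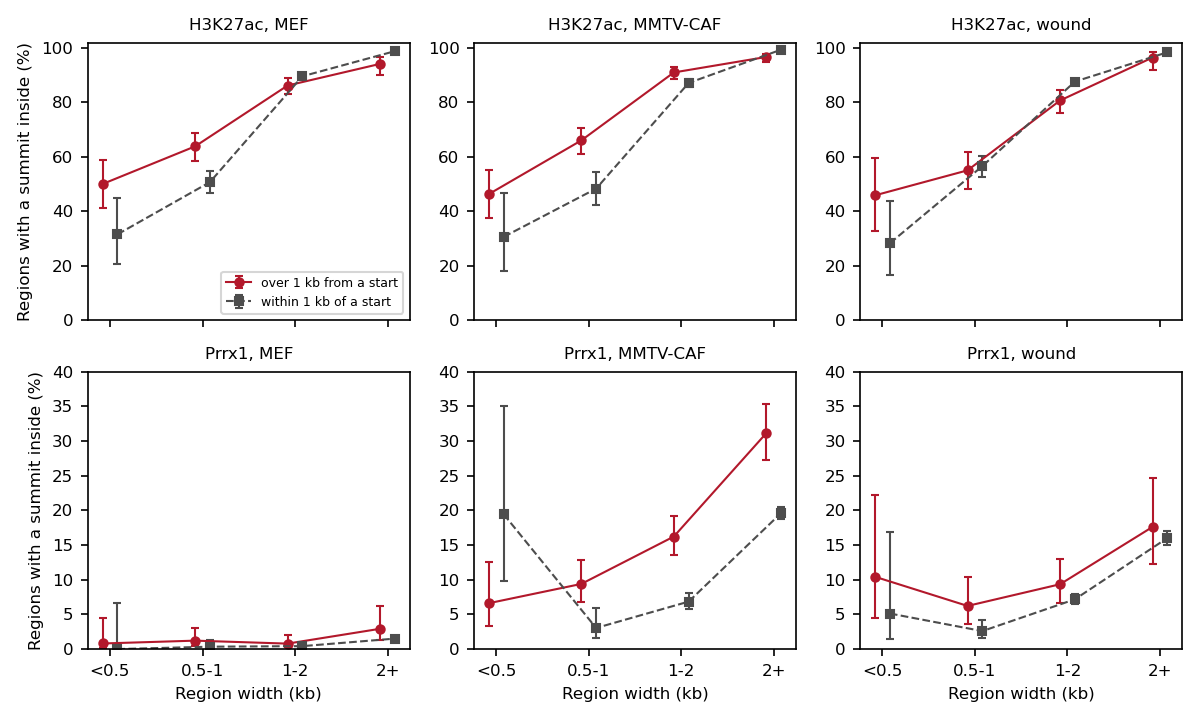
Share of H3K4me3 regions with an H3K27ac or Prrx1 summit of the same cell type inside, by width class, for distal regions and regions near a start, with Wilson 95% intervals. The H3K27ac share grows with width in each cell type, and distal regions stand above regions near a start at 500 bp to 1 kb in MEF (63.8% against 50.7%) and MMTV-CAF (66.0% against 48.3%) but below them at 2 kb and more in all 3 cell types (94.1% against 98.8% in MEF).

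The 5 members with both kinds of summit in most cell types were by this choice shared between cell types. The member at chr16:64872103-64874237, 19575 bp from Cggbp1, a CGG-repeat binding protein gene, held a Prrx1 summit in each cell type and had 31.5, 18.7 and 28.5 in MEF, 40.7 and 32.6 in MMTV-CAF, then 24.7 and 14.5 in wound cells. RefSeq places the start of the gene model Gm33971 inside it. The member at chr7:116812114-116816716, 30488 bp from D930014E17Rik, also held Prrx1 in each, with 26.5, 9.28 and 16.6, then 29.1 and 28.5, then 11.2 and 12.1. The remaining 3 were the Mir23a member, chr8:108019260-108021399 with a RefSeq start of Zdhhc1, a palmitoyltransferase gene, inside (43.2, 11.0 and 32.5, then 63.7 and 68.2, then 31.7 and 26.5), and chr8:46019315-46025652, 9910 bp from Fat1, an atypical cadherin gene (49.3, 12.6 and 32.8, then 53.0 and 63.1, then 28.8 and 24.01). The Commd3 region shown above had 40.6, 20.7 and 29.4, then 42.9 and 62.2, then 18.0 and 20.7. None of these lost its H3K4me3 region in a deleted list.

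Nearly all distal regions kept H3K4me3 in the SG lists and fewer did in MEF KI. A region overlapping by at least 1 bp was present for 1149 of 1165 in MEF SG (98.6%, 97.8 to 99.2), 1623 of 1663 in MMTV-CAF SG (97.6%, 96.7 to 98.2) and 717 of 720 in wound SG (99.6%, 98.8 to 99.9), where all regions at the minimum had 99.4%, 99.3% and 99.9%. In MEF KI it was 840 of 1165 (72.1%, 69.5 to 74.6), against 92.1% of all regions at the minimum and 94.2% near a start, a difference of −22.1 points (−24.8 to −19.6). The KI list also had the fewest regions at the minimum. Regions near a start weighted to the scores of the distal ones had 78.0%, which left −5.90 points. Within score classes, distal regions of −log10 p 10 to 20 were present in KI in 57.5% of cases (53.7 to 61.2) and those near a start in 62.1% (59.4 to 64.8), and from 20 to 50 in 90.7% and 98.3%. In the SG lists the differences from regions near a start were −0.91, −1.93 and −0.36 points, and after weighting by score 0.82, 0.26 and −0.31 points in MEF, MMTV-CAF and wound cells.

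Stricter criteria lowered these shares without changing which list was lowest. At least 50% of the WT region was covered in 54.7% of cases in KI, 95.3% in SG MEF, 94.9% in SG MMTV-CAF and 99.3% in SG wound cells. A region of −log10 p 10 or more was present in 19.1%, 69.9%, 84.7% and 69.9%, against 55.8%, 94.6%, 97.5% and 92.9% near a start. For scale, WT lists of another cell type covered 78.6% (MMTV-CAF regions in wound cells) to 96.5% (wound regions in MEF) of the distal regions. Over merged members, 1672 (82.2%) were present in every deleted list of the cell types where they were found, 1994 (98.1%) in at least 1, and 39 (1.92%) in none. Of the 515 members of all 3 cell types, 455 (88.4%) were present in all 4 deleted lists.

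**Figure D5:**
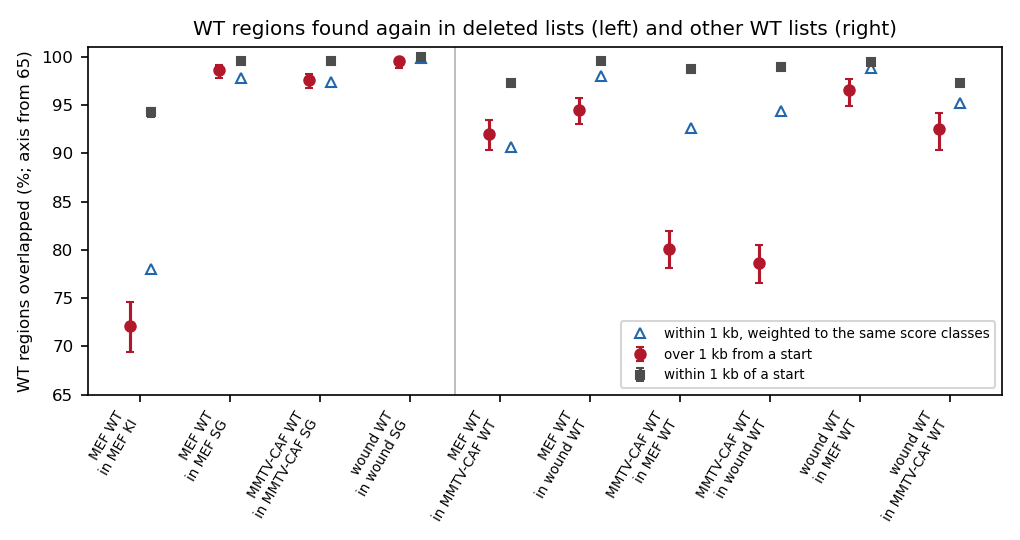
Share of distal regions and of regions near a start covered by a region of the deleted list of the same cell type, and by the WT lists of the other cell types, with Wilson 95% intervals. Triangles are the share near a start weighted to the scores of the distal regions, and the axis starts at 65%. MEF KI stands apart with 72.1% of distal regions, and the 3 SG lists lie at 97.6% to 99.6%.

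Members with and without a Prrx1 summit were present in the deleted lists at shares whose intervals overlapped. In MMTV-CAF SG presence was 302 of 310 (97.4%, 94.99 to 98.7) with and 1321 of 1353 (97.6%, 96.7 to 98.3) without, in wound SG 73 of 73 and 644 of 647, in MEF SG 15 of 15 and 1134 of 1150, and in MEF KI 13 of 15 (86.7%, 62.1 to 96.3) and 827 of 1150 (71.9%, 69.3 to 74.4). Of the distal regions with an H3K27ac summit in WT, 62.0% (559 of 902) kept one in KI. The share was 94.9% in SG MEF, 94.99% in SG MMTV-CAF and 95.1% in SG wound cells. Near a start the 4 shares were 76.2%, 99.2%, 99.0% and 98.6%. The whole H3K27ac list held 29325 summits in MEF KI, against 44918 in MEF WT and 43019 in MEF SG.

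The regions that were lost from the deleted lists were few outside MEF KI. In MEF, the strongest absent from both KI and SG were chr15:101146140-101146998 (19.5 in MEF WT, 14.1 and 17.2 in MMTV-CAF, 8.43 and 6.99 in wound cells) and chr1:74863180-74864477, 25090 bp from Wnt10a, a Wnt ligand gene (14.6 in MEF WT). The latter also had 13.2 in MMTV-CAF WT with no region in SG, but 13.8 and 13.1 in wound WT and SG. In MMTV-CAF the strongest was chr9:7977054-7981510 in an intron of Yap1, the Hippo coactivator, with 28.1 in WT and no region in any of the other 6 lists, followed by chr12:120074706-120076275, 8527 bp from Sp8, a limb zinc-finger factor, with 27.6 in WT, none in SG, 13.0 and 12.9 in MEF WT and SG, none in KI, and 8.47 and 9.13 in wound cells. In wound cells the strongest were in an exon of Cby3 (11.9) and 24126 bp from Elf2, an ETS factor (10.6), and the latter had 16.5 in MEF SG and 20.3 in MMTV-CAF SG. The Cby3 region had 6.42 in MEF SG. Except for the Yap1 region, each of these 6 was thus present in a deleted list of another cell type. The Yap1 region held 3 Prrx1 summits in MMTV-CAF, and 1 H3K27ac summit in MMTV-CAF WT and in SG. The others held no Prrx1 summit in any cell type.

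Where a region was present in both, its width and its fold over input could be compared. In MEF KI the median log2 ratio of widths to WT was −0.54 over 840 distal regions (−0.39 near a start), and 92.4% were narrower. In MEF SG it was −0.13 (−0.10 near a start), in MMTV-CAF SG 0.12 (−0.05) and in wound SG 0.23 (0.18). Distal and promoter regions thus moved the same way except in MMTV-CAF SG. The median log2 ratio of fold enrichment was −0.45, 0.00, 0.16 and 0.14, against −0.59, 0.07, 0.14 and 0.17 near a start.

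The rule was also applied to the deleted lists themselves. It gave 248 distal regions in MEF KI and 872 in MEF SG against 1165 in WT, 2754 in MMTV-CAF SG against 1663, and 663 in wound SG against 720. All regions at the minimum numbered 6483, 11255, 13659 and 10619 in the 4 lists, so the rise in MMTV-CAF SG was larger for distal regions (log2 ratio 0.73) than for all (0.16). Of the 2754, 1486 overlapped a member and 1268 did not. Of those 1268, 1076 overlapped a region of the MMTV-CAF WT list, with a median −log10 p of 6.73 in WT and 12.4 in SG, and 192 overlapped none. Most of these 1268 regions were thus already listed in WT below the minimum or outside the distance rule.

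The genes around the distal regions included transcription factors of mesenchyme. A member lay within 50 kb of a start for 3236 of 22225 protein-coding genes (14.6%), and neighbouring genes can share a member. Of 23 mesenchymal transcription factors 10 had one (43.5%, interval 25.6 to 63.2): Prrx1, Prrx2, Osr1, Foxf1a, Tbx15, Meox2, Snai1, Klf4, Tead1 and Nfix. Each of the 10 had a member of MMTV-CAF, but only 3 had one of MEF and 2 one of wound cells. Among the 3236 coding genes these numbers were 2706, 2101 and 1403. The member of Prrx1 itself, chr1:165287313-165293300, spanned 5988 bp at 43472 bp from the start and held H3K27ac and a Prrx1 summit. It had 16.2 and 15.4 in MMTV-CAF, 7.66 and 6.85 in MEF WT and SG, no region in KI, none in wound WT and 4.48 in wound SG. Osr1, an odd-skipped zinc-finger factor, had 2 members. The one at 2780 bp was found in all 3 cell types with 19.8, 14.8 and 17.8 in MEF, 39.7 and 35.2 in MMTV-CAF, then 11.5 and 16.9 in wound cells. The other, at 10131 bp, was a member of MMTV-CAF by the rule (11.75 and 16.6), with 5.67 and 7.37 in MEF WT and SG, 7.14 in wound SG and no region in KI or wound WT. Klf4 had a member of wound cells, given above, and one of MMTV-CAF at 3446 bp from the start, with 11.9 and 6.07 in MMTV-CAF, none in wound WT and 20.5 in wound SG.

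Of 9 genes of AP-1 subunits, 4 had a member (44.4%, 18.9 to 73.3): Fos, Fosb, Junb and Atf3. The stronger of those near Fos, at 10642 bp, had 23.3, 7.82 and 21.6 in MEF, 33.0 and 36.7 in MMTV-CAF, then 13.8 and 12.9 in wound cells. Fosb had 4 members between 9444 and 31409 bp from its start. The member of Junb, at 5774 bp, had 11.6, 6.04 and 9.18, then 20.1 and 24.3, then 13.9 and 9.90, and held H3K27ac in all 3 cell types. That of Atf3 was present in the MMTV-CAF lists alone, at 10.4 and 8.09.

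Of 39 Hox genes, which set position along the body axis, 18 had a member (46.2%, 31.6 to 61.4), with 9 of 10 in the Hoxb cluster, 9 of 9 in Hoxc, 0 of 11 in Hoxa and 0 of 9 in Hoxd. These genes shared 9 members, of which 2 were found in all 3 cell types, so the 18 genes are not separate cases. The Hoxc member at 5490 bp from Hoxc4 had 25.4 in MEF WT and 19.4 in SG with no region in KI, 48.5 and 62.3 in MMTV-CAF, then 12.4 and 19.8 in wound cells, and held Prrx1 in 2 cell types. Of the 5 that were members of MEF, 0 had a region in KI and 5 in SG, where 72.1% and 98.6% of all distal MEF regions were present. Whatever their cell type, all 9 were present in MMTV-CAF SG and in wound SG.

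Extracellular matrix genes had a member in 5 of 20 cases (25%, 11.2 to 46.9), contractile genes in 3 of 11 (27.3%, 9.75 to 56.6) and TGF-beta pathway genes in 3 of 17 (17.6%, 6.19 to 41.0), and these intervals include the 14.6% of all coding genes. The matrix genes were Col1a1, Col1a2, Lox, Tnc and Timp1. The region 2651 bp from Col1a1, which encodes a chain of type I collagen, had 13.4 and 7.34 in MEF WT and SG and no region in KI, while the other cells had 35.5 and 33.1 (MMTV-CAF) and 12.9 and 7.93 (wound), although it counts as a MEF member because only the MEF region met the rule. The member 23497 bp from Tnc, the tenascin C gene, had 17.3, 9.46 and 8.96 in MEF, 21.6 and 20.7 in MMTV-CAF, then 16.1 and 11.3 in wound cells. The contractile genes, Myl9, Actn1 and Cald1, had members of MMTV-CAF alone by the rule, at 13.8, 10.2 and 12.5 in WT and 23.4, 7.82 and 20.8 in SG. The TGF-beta genes were Smad4, Smad7 and Skil, mediator and inhibitors of the pathway, each with a member found in all 3 cell types, as had 1053 of the 3236 coding genes, and Smad4 and Smad7 each had a second member of 1 cell type. The shared member near Smad7 had 29.9, 4.74 and 20.1 in MEF, 51.3 and 35.1 in MMTV-CAF, then 19.6 and 17.6 in wound cells, and held Prrx1 in 2 cell types. Near Skil it had 28.2, 7.54 and 20.4, then 27.8 and 36.3, then 10.1 and 13.3.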

How the data were processed

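ChIP-seq had been performed on cultured mouse fibroblasts of 3 cell types, WT and Prrx1-deleted. The authors used Trimmomatic for trimming, Bowtie for alignment to mm9 and MACS2 for calling against input, after removal of duplicate reads, and gave 1 list for each group and mark. Whether the duplicate Prrx1 ChIPs were pooled is not stated. In the deposited H3K4me3 files each broad region has a fold over input, a −log10 p and q, and an integer score that was not used. For H3K27ac and Prrx1 the deposited values are the −log10 p of summits 1 bp wide.

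Groups came from the sample titles. The reference NCBIM37 (the same build as mm9) with GENCODE vM1 gave sequence and every annotated transcript start. Regions overlapping by 1 bp were merged, a member counted as found in a cell type when a region of that list met both criteria, and as present in a deleted list at any overlap. RefSeq promoters (300 bases) were placed by exact match, 31872 of 32851 (97.0%); starts on chromosome 18 were not analysed here. Named members were the strongest in all 3 types, the widest, the strongest of 1 type, those with most H3K27ac and Prrx1, the strongest absent from deleted lists and the densest groups, with 6 gene lists. The members, lists and rules were chosen with earlier results of these data known. Shares have Wilson and differences Newcombe 95% intervals. Scripts were tested on simulated data. Alternatives covered distance, score, annotation, merging, overlap, summits, width and score weighting, and leaving out lists. Python 3.11.15, numpy 2.4.6, pysam 0.24.0 and matplotlib 3.10.9 were used.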

Additional observations from a re-analysis of the deposited data

Results flagged for a closer look

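The change on Prrx1 deletion went in opposite directions in different cell types for the number and for the width of distal regions. With 1 list per group the differences between cell types were not tested. The log2 ratio of the number of distal regions to WT was −2.23 for MEF KI and −0.42 for MEF SG, but 0.73 for SG MMTV-CAF and −0.12 for SG wound cells. The median log2 ratio of their widths was −0.54 for MEF KI and −0.13 for MEF SG, but 0.12 for SG MMTV-CAF and 0.23 for SG wound cells. The log2 ratio of all regions at the score minimum was −0.90, −0.10, 0.16 and −0.08 in the same 4 lists, and the part of list strength in the change was not tested.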

How the results depend on the processing

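Over all distal regions, 25.3% were found in all 3 cell types, 82.0% held H3K27ac, 17.7% held Prrx1, 82.2% were present in every deleted list of their types, 25.9% were CpG-rich and the median width was 1365 bp. Of 93 alternative values, 48 (29 planned and 19 added) moved by less than the interval (or 1.5 times for a count), 41 moved further and 4 reversed. Reversed means a change of sign where the first interval left out 0. The Prrx1 difference in wound cells also changed sign, from −1.48 to 2.69 points, but its first interval included 0. A score of at least 20 left 737 members, with 17.4% in all 3 types, H3K27ac in 93.2%, presence of 93.4%, a width of 1849 bp and 38.7% CpG-rich. A score of at least 5 gave 7321, 16.2%, 72.8%, presence of 66.4%, 941 bp and 10.9% CpG-rich, with Prrx1 in 14.2%. The share within 5 kb of a start was 27.4%, and 20.7% when members lay over 2 kb away. Counting only protein-coding starts gave 28.9% in all 3 types, a width of 1432 bp and 20.8% within 5 kb. Counting any overlapping region gave 69.7% in all 3 types. Prrx1 was found in 19.97% within 500 bp of the region and in 14.7% with summits of at least 5. Presence was 70.0% with 50% of the region covered and 38.8% with deleted regions of at least 10. Weighted to the members' widths or scores, the difference from regions near a start became 3.38 points for H3K27ac in MEF and 5.72 in MMTV-CAF (both reversed), −2.74 in wound cells, 7.76 and 2.69 points for Prrx1 in MMTV-CAF and wound cells, and −5.90 in KI, 0.82 in MEF SG and 0.26 in MMTV-CAF SG for presence (the last 2 reversed).

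Chosen after seeing the data, leaving out members with a RefSeq start gave 20.3% in all 3 types and 1298 bp. Without the MEF list presence was 97.6%, and without the KI list alone 97.2%. Without the MMTV-CAF list there were 1265 members, with H3K27ac in 76.9%, Prrx1 in 6.56%, presence of 73.8%, 1207 bp and 40.4% CpG-rich. Without the wound list Prrx1 was in 16.1%. The 720 strongest distal regions of each list gave 1057 members, 39.4% in all 3 types and presence of 90.0%. The wider B box was in 10.1% against 3.35%. Apart from the weighting itself and the leaving out of lists or members, the cause of these shifts was not tested. Taking equal numbers of regions per list removed none at the minimum, and over 5 kb no share within 5 kb exists.

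No paired analysis was possible because each group had 1 list and no result comes from a test. The lists hold no depth, MEF KI had the fewest regions at the minimum, and a region absent from a list can still lie under the caller's cutoff. The MEF WT control line, the strain of MMTV-CAF and the pooling of Prrx1 ChIPs limit what differences between lists show.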
